A study of Mus musculus with 5 samples.

Results

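The genes of oxidative phosphorylation were taken as those whose symbol in the platform annotation starts with Nduf and a letter a, b, c, s or v, is *Sdha*, *Sdhb*, *Sdhc* or *Sdhd*, or starts with Uqcr, with Cox and a digit of subunits 4 to 8, or with Atp5. This rule found 90 genes of the 18193 that a probe set of the array names alone, on 179 of 45101 probe sets. Of these genes 80 encode subunits of complexes I to V and 10 are assembly factors and relatives, which were kept apart. RNA had been taken from whole optic nerves of C57BL/6 mice aged P35 to P45, after 3 days of organotypic culture with LY294002, an inhibitor of phosphoinositide 3-kinase (PI3K). There were 3 arrays of nerves at the low dose, L-LY29, and 2 at the high dose, H-LY29. The sample labels give 0.5 µM for L-LY29 and 50 µM for H-LY29. The study's methods give a higher low dose for adult nerves than the labels do, and it remains unknown which of them these nerves were given. In their treatment entries the labels also spell the compound LY295002, which was read as LY294002. Every difference is L-LY29 minus H-LY29, since untreated nerves were not analysed here. A cut nerve in culture holds glia, vessels and sheath, and the axons of neurons whose cell bodies are in the retina. In bulk tissue of this kind, fewer cells of a type and less RNA per cell cannot be told apart.

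Oxidative phosphorylation is the last step of respiration. Complex I takes electrons from NADH and complex II from succinate, ubiquinone carries them to complex III, and cytochrome c carries them on to complex IV, which passes them to oxygen. Complexes I, III and IV move protons across the inner mitochondrial membrane, and complex V, the ATP synthase, makes ATP as the protons flow back. Most subunits are encoded in the nucleus and are built together with a few that the mitochondrial genome encodes. In white matter the process serves both glia and the axons they wrap, and making myelin is costly in energy for oligodendrocytes.

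Signals are the deposited log2 values, and 1 log2 unit is a doubling. Each gene was read on its brightest probe set, and probe sets with a mean under 4.77 were left out. This removed 3 genes of the list: *Ndufb4*, *Cox7b2* (a testis form of subunit 7b) and *Cox8b* (a form of subunit 8 known from heart, muscle and brown fat). The doses were compared by limma across 12935 genes, and a gene was called at an adjusted p (Benjamini-Hochberg) under 0.05. No label or method says which mice and nerves went into which array, so a p-value covers the spread of these arrays alone, which may be technical.

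Arrays of the same dose correlated at 0.990 to 0.995 (Pearson, over all probe sets) and arrays of different doses at 0.882 to 0.892. Poly-A control RNAs, which the array maker's protocol adds before labelling, averaged 10.22 in L-LY29 and 3.17 in H-LY29. No source used here says whether the doses were labelled and hybridised in separate runs, and dose and processing cannot be told apart, so that each difference below is one between these arrays. For actin the 3′ minus 5′ probe set gave 0.43 log2 units in L-LY29 against 0.92 in H-LY29, and for *Gapdh* −0.13 in L-LY29 against 0.69 in H-LY29. Oligodendrocyte markers, which define the labelled tissue, were all measured where the array had them, 6 of 9 higher and 3 lower in L-LY29. Their summed linear signal was 70122 to 72167 in L-LY29, against 58204 to 60476 in H-LY29. Other cell types also differed with dose, and the counts of all these markers stand beside 27.1% higher and 46.6% lower of all tested genes. Of the ocular surface epithelium markers 7 of 8 were higher in L-LY29, with sums of 22965, 3975 and 7445 on L-LY29 replicates 1 to 3, against 153 to 188 in H-LY29. Of the higher ones *Krt15*, *Krt6b*, *Calml3*, *Psca* and *Lypd2* averaged under the limit of 4.77 in H-LY29. They were measured only through L-LY29 and had to be higher there. Of the fibroblast markers 6 of 6 were lower, with sums of 2627 to 3909 in L-LY29, against 14828 to 18143 in H-LY29. Of the microglia markers 6 of 7 were higher, with sums of 9423 to 10887 in L-LY29, against 3597 to 4268 in H-LY29. Of the measured neuron and retina markers 5 of 5 were higher, with sums of 1489 to 1770 in L-LY29, against 319 to 408 in H-LY29. The part of these cell types in the differences below was not tested. Without L-LY29 replicate 1, where the epithelial sum was highest, 28 oxidative phosphorylation genes were higher and 30 lower. The epithelial sums of L-LY29 replicates 2 and 3 also lay far above those of H-LY29. These counts therefore do not test the part of the epithelium.

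The subunits of the respiratory complexes did not shift as a block between the doses. Of 87 measured genes 30 were higher in L-LY29 and 33 were lower, while 24 did not pass, beside 73.8% of all tested genes called. Higher genes made up 34.5% and lower genes 37.9% of the oxidative phosphorylation genes, against 27.1% and 46.6% of all tested genes. Their median difference was −0.03, where that of all tested genes was −0.26. Subunit genes alone gave 29 higher, 27 lower and 21 that did not pass, with a median of −0.01. Differences of more than 1 log2 unit were found in 20.8% of the subunit genes and in 42.0% of all tested genes. Among the 8617 genes at least as bright as 95% of the measured members this share was 41.0%. The 2 doses did not overlap in 77 of the 87 genes, where 83.1% of all tested genes did not overlap. These genes were read at high signal, 70 of 87 with a mean above 10, and with little spread: the SD over arrays had a median of 0.03 in L-LY29 and 0.08 in H-LY29.

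The split between higher and lower depended on how the arrays were scaled. As deposited, 47.6% of the called oxidative phosphorylation genes were higher in L-LY29. With equal array medians 46 genes were higher and 29 lower (61.3% of those called were higher), and with quantile normalization 34 were higher and 32 lower (51.5%). The same steps moved the median of all tested genes to −0.05 and 0.05. Against the median of all tested genes on the same scale, the subunit genes lay 0.25 above all tested genes as deposited and with equal array medians, and 0.00 above them after quantile normalization.

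**Figure D1:**
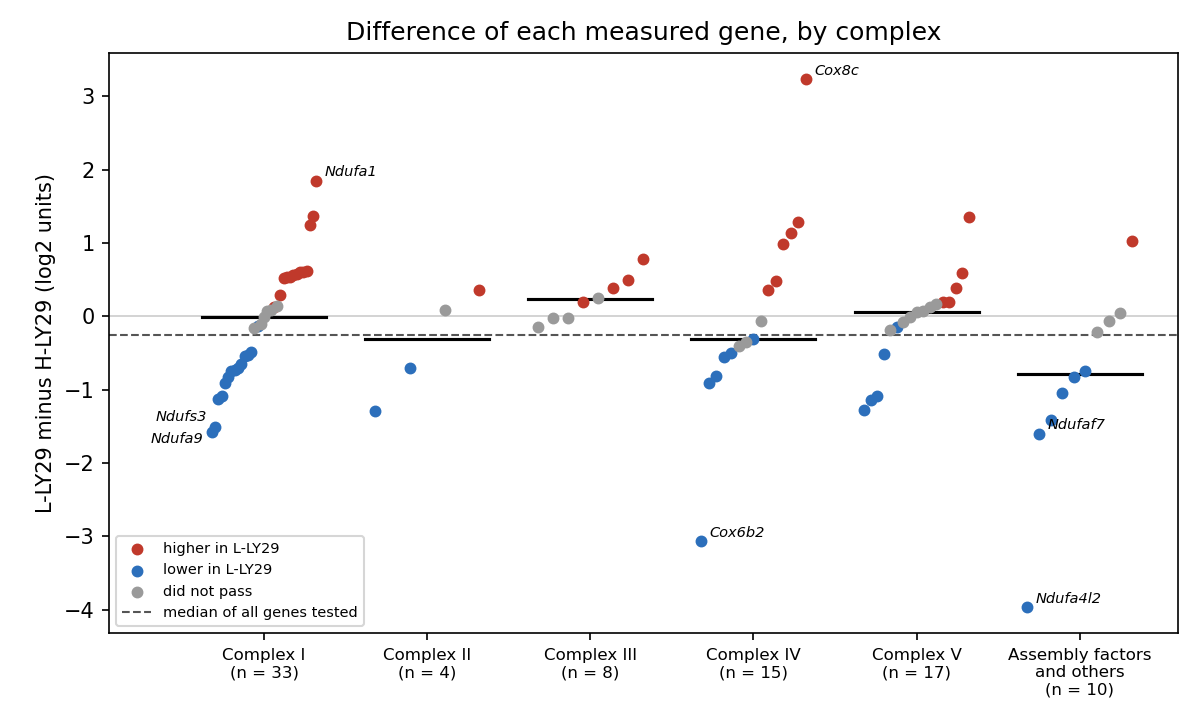
Difference of each measured oxidative phosphorylation gene, L-LY29 minus H-LY29 in log2 units (vertical axis), by complex (horizontal axis); each point is a gene, coloured by its call, black bars are medians of a complex and the dashed line is the median of all tested genes. Complexes I, IV and V hold genes on both sides of zero, complex III has no gene called lower, and the assembly factors lie mostly below zero with a median of −0.79.

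Nuclear respiratory genes are known to share a few short promoter elements, bound by NRF1, by GABP and other ETS factors, and by YY1. RefSeq promoters (GRCm38.p6, 250 bases before to 50 after the start) were found for 74 of the 90 genes, 79 promoters in all, and searched on both strands for GCGCATGCG (NRF1), CCGGAAG (ETS) and AAGATGGCG (YY1). The ETS and YY1 letters overlapped in 0 of the 79. The NRF1 letters were in 11.4% of them, against 1.75% of the 32851 promoters in the table. The ETS letters were in 24.1% against 8.86%, and the YY1 letters in 8.86% against 1.40%. Genes with such letters stood on both sides of the dose difference. The NRF1 letters were in 15.4% of 26 promoters of genes higher in L-LY29, in 3.45% of 29 of genes lower and in 19.0% of 21 of genes that did not pass. The ETS letters were in 30.8% of 26 promoters of genes higher in L-LY29, in 13.8% of 29 of genes lower and in 33.3% of 21 of genes that did not pass. The YY1 letters were in 1 promoter of a higher gene, *Atp5j*, and in 4 of lower ones: *Ndufa9*, *Ndufc1*, *Ndufs4* and *Ndufs7*. No test was run on these shares, and a match of letters is not evidence that a factor binds. The following promoters are shown because they set a gene higher in L-LY29 beside one lower in L-LY29 with the same letters, and add a match of each other kind; capitals mark the letters searched. *Atp5l* (chr9:44920693-44920992, minus strand, higher) and *Ndufs3* (chr2:90904672-90904971, minus strand, lower) each hold the ETS letters at 2 places, and *Atp5l* also holds the NRF1 letters. *Atp5g2* (chr15:102670998-102671297, minus strand, higher) holds the NRF1 letters on both strands from 42 bases before the start, and *Ndufa9* (chr6:126849095-126849394, minus strand, lower) the YY1 letters from 29 bases after it.
Atp5l: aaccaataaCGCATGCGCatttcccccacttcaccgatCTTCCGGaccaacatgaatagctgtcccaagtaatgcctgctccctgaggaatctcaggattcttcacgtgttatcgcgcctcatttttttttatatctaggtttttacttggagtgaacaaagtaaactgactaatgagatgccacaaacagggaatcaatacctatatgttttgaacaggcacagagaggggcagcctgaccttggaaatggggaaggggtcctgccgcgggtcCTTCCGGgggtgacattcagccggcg
Ndufs3: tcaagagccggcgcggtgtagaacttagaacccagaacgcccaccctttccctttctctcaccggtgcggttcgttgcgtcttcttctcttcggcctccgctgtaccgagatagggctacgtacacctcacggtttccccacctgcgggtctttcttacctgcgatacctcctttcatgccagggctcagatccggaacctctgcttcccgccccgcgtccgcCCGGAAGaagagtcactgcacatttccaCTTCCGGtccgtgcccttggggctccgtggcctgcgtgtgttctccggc
Atp5g2: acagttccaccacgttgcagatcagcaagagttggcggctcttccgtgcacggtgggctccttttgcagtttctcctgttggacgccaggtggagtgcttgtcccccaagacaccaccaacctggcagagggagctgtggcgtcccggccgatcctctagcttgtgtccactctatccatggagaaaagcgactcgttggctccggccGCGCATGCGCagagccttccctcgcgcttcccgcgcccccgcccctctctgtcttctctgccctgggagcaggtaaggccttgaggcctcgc
Ndufa9: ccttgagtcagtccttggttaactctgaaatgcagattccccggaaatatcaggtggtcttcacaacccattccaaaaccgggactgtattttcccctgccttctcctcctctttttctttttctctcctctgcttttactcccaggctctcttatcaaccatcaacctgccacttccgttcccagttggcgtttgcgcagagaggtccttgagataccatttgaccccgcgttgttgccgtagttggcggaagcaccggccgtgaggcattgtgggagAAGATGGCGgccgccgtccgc

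Complex I, the NADH dehydrogenase, had 33 measured genes, of which 13 were higher in L-LY29, 14 lower and 6 did not pass, with a median of −0.01. The counts of each complex stand beside 27.1% higher and 46.6% lower of all tested genes. The 6 measured core subunits, which belong to the catalytic part with its flavin and iron-sulphur clusters, split evenly, 3 higher and 3 lower. The supernumerary subunits around them gave 10 higher and 11 lower of 27.

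*Ndufs3*, a core subunit of the arm that reduces ubiquinone, had signals of 10.32, 10.24 and 10.34 in L-LY29 and of 11.89 and 11.73 in H-LY29. All L-LY29 arrays lay below both H-LY29 arrays, and the difference was −1.51 (SE 0.07, adjusted p = 6.52e-05, limma). *Ndufs7*, the iron-sulphur subunit next to the ubiquinone site, had 11.02, 10.96 and 10.92 in L-LY29 and 12.21 and 11.98 in H-LY29. It was lower by the same pattern, at −1.13 (SE 0.08, adjusted p = 0.000228), while its other probe set did not pass. *Ndufs1*, the largest core subunit, went the other way, with 10.10, 10.05 and 10.13 in L-LY29 against 9.55 and 9.49 in H-LY29 (difference 0.58, SE 0.06, adjusted p = 0.000512). At the tip that oxidises NADH, *Ndufv1*, which binds the flavin, was lower at −0.53, and its iron-sulphur neighbour *Ndufv2* was higher at 0.29. The 3 probe sets of each of these genes were called in the direction of the gene. *Ndufs8*, an iron-sulphur core subunit, was only just past the threshold at 0.12 (adjusted p = 0.0476), and its 6 probe sets included 2 called higher and 1 called lower.

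The largest difference among the supernumerary subunits was in *Ndufa1*, a small protein of the membrane arm whose gene is on the X chromosome. It had signals of 11.76, 11.88 and 11.88 in L-LY29 and of 10.05 and 9.93 in H-LY29, a difference of 1.85 (SE 0.06, adjusted p = 4.84e-05). *Ndufa6*, of the LYR-motif family, had 11.73, 11.71 and 11.80 in L-LY29 and 10.48 and 10.27 in H-LY29 (difference 1.37, SE 0.08). Each of these genes rests on 1 probe set. *Ndufb2*, a subunit of the membrane arm, followed at 1.25, although its probe sets did not all go the same way.

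On the lower side *Ndufa9*, which sits where the arms of the complex meet, had 10.18, 10.15 and 10.25 in L-LY29 and 11.75 and 11.79 in H-LY29. The doses lay far apart on 1 probe set, with a difference of −1.58 (SE 0.05, adjusted p = 4.57e-05). The membrane arm held genes in both directions. *Ndufb10* (−1.08), *Ndufb7* (−0.91), *Ndufb3* (−0.83), *Ndufc1* (−0.75), *Ndufb6* (−0.70), *Ndufa13* (−0.54), *Ndufc2* (−0.49) and *Ndufs5* (−0.13, and 0.08 with equal array medians) were lower. *Ndufb8* (0.60), *Ndufa10* (0.60), *Ndufa3* (0.56) and *Ndufb9* (0.54) were higher. In the peripheral arm *Ndufa12* (0.54) and *Ndufa7* (0.52) were higher and *Ndufv3* (−0.73) and *Ndufs4* (−0.65) were lower. The mitochondrial acyl carrier protein, *Ndufab1*, was higher on its brightest probe set at 0.62. *Ndufa2*, *Ndufa5*, *Ndufa8*, *Ndufb1*, *Ndufb5* and *Ndufb11* did not pass, with differences from −0.16 for *Ndufb11* to 0.14 for *Ndufa8*. A second probe set was higher for *Ndufb5*, at 1.45 (averaging 11.63 in L-LY29 against 10.18 in H-LY29), and for *Ndufb11*, at 0.48.

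**Figure D2:**
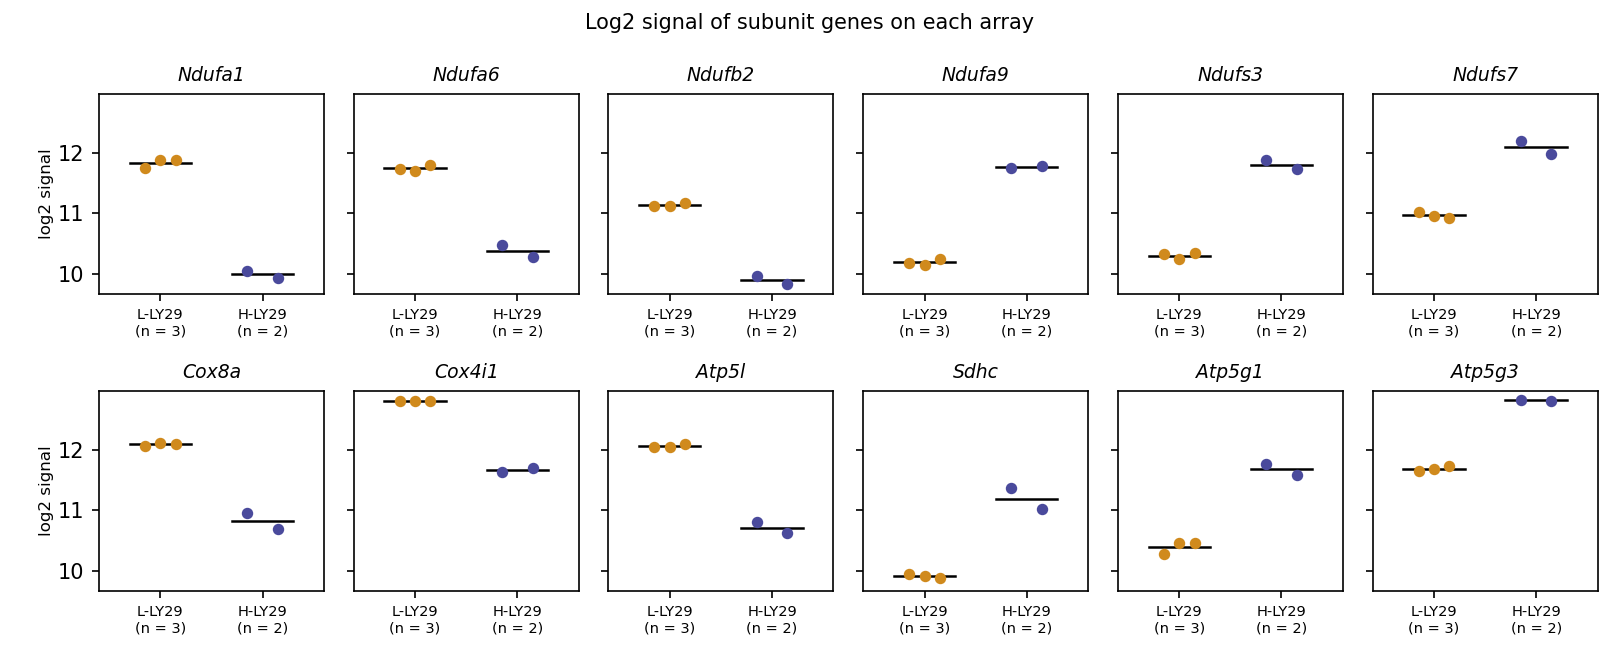
Log2 signal (vertical axis) of 12 subunit genes on each array, the 3 L-LY29 arrays at the left of each panel and the 2 H-LY29 arrays at the right, with points for arrays and bars for means. The genes were chosen from called genes with separate doses, so no panel could show an overlap. In 83.1% of all tested genes the doses did not overlap. *Ndufa1*, *Ndufa6*, *Ndufb2*, *Cox8a*, *Cox4i1* and *Atp5l* are higher in L-LY29 and the other 6 genes are lower.

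Complex II, succinate dehydrogenase, is shared with the citrate cycle and is encoded by the nucleus alone. Its 4 genes did not move together. *Sdhc*, a membrane anchor that helps to hold the haem, had 9.94, 9.91 and 9.87 in L-LY29 and 11.37 and 11.02 in H-LY29. It was lower by more than the spread of the arrays, at −1.29 (SE 0.11, adjusted p = 0.000367), and 1 of the 2 probe sets was called. The other anchor, *Sdhd*, had 10.64, 10.69 and 10.64 in L-LY29 and 10.36 and 10.23 in H-LY29, and was higher at 0.36 (SE 0.06). *Sdha*, the flavoprotein that oxidises succinate, was lower at −0.71 on its brightest probe set and higher at 0.29 on another. The iron-sulphur subunit *Sdhb* overlapped between the doses, with a mean of 11.00 in L-LY29 (SD 0.03, n = 3) against 10.91 in H-LY29 (SD 0.12, n = 2).

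Complex III, which hands electrons from ubiquinol to cytochrome c, was the complex with no gene called lower: 4 of 8 genes were higher, 4 did not pass, and the median was 0.23. With equal array medians 7 of 8 were higher and 0 lower, and with quantile normalization 4 were higher and 0 lower. The largest difference was in *Uqcrfs1*, the Rieske iron-sulphur protein, with 11.00, 10.99 and 11.04 in L-LY29 and 10.19 and 10.28 in H-LY29. Its arrays separated fully by dose, and the difference was 0.78 (SE 0.05, adjusted p = 0.000164). *Uqcrb*, a subunit that binds ubiquinone, had 12.86, 12.90 and 12.87 in L-LY29 and 12.29 and 12.46 in H-LY29 (difference 0.50, SE 0.06), but a second probe set was lower at −0.41. The small membrane subunits *Uqcr10* (0.39) and *Uqcr11* (0.20) were higher. All 3 probe sets of *Uqcr10* were called higher, and the other 2 differed widely between the H-LY29 arrays: one had 9.46, 9.44 and 9.34 in L-LY29 and 5.86 and 7.96 in H-LY29. The core proteins *Uqcrc1* and *Uqcrc2* gave −0.14 and −0.02, *Uqcrq* gave −0.03 and the hinge protein *Uqcrh* 0.25, none of them past the threshold. A second probe set of *Uqcrc2* was higher at 0.84, averaging 11.42 in L-LY29 against 10.58 in H-LY29. A dim one of *Uqcrq* was higher at 1.05, but it averaged 4.22 in H-LY29, under the limit of 4.77. It was measured only through L-LY29 and had to be higher there. *Cyc1*, the cytochrome c1 of the same complex, lies outside the symbol rule. It had 10.93, 10.93 and 10.98 in L-LY29 and 9.94 and 9.69 in H-LY29, and was higher at 1.13 (SE 0.09, adjusted p = 0.000243).

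Complex IV, cytochrome c oxidase, had 15 measured genes, 6 higher in L-LY29, 6 lower and 3 that did not pass, with a median of −0.31 that moved to 0.01 after quantile normalization. Several of its subunits exist in a common form and a second form known from particular tissues. Leaving out the second forms, 5 of 10 genes were higher and 4 lower.

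Among the common subunits, *Cox4i1*, which takes part in regulation of the enzyme by ATP, had 12.82, 12.81 and 12.82 in L-LY29 and 11.64 and 11.71 in H-LY29. The L-LY29 arrays agreed within 0.01 and lay above both others, a difference of 1.14 (SE 0.04, adjusted p = 4.49e-05). *Cox8a*, the common form of subunit 8, had 12.07, 12.12 and 12.11 in L-LY29 and 10.95 and 10.69 in H-LY29 (difference 1.28, SE 0.08, adjusted p = 0.00017), and its second measured probe set gave 1.10. *Cox6c* (0.99), *Cox5a* (0.48) and *Cox6a1* (0.36) were also higher, although 1 probe set of *Cox5a* was called lower. *Cox7a2*, the common form of subunit 7a, was lower, with 12.47, 12.52 and 12.55 in L-LY29 and 13.37 and 13.28 in H-LY29 (difference −0.81, SE 0.04, adjusted p = 9.82e-05). Its other probe set did not pass, at 0.05. The zinc-binding subunit *Cox5b* was lower at −0.56, with 4 of 5 measured probe sets called lower, and *Cox7c* was lower at −0.50 but gave −0.01 with quantile normalization and did not pass there. *Cox6b1* gave −0.07 and did not pass, but its second probe set, about as bright, was lower at −1.53. *Ndufa4*, first assigned to complex I and now placed in complex IV, was lower at −0.31 (adjusted p = 0.0475), with an SD of 0.04 in L-LY29 (n = 3) and of 0.24 in H-LY29 (n = 2). This call was lost with no filter on low values and without any 1 of the L-LY29 arrays, and without H-LY29 replicate 1 the difference was −0.14 and did not pass.

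The second isoforms held the widest differences of the complex. *Cox6b2*, a form of subunit 6b known from testis, had 6.14, 5.81 and 6.24 in L-LY29 and 9.20 and 9.06 in H-LY29. It was lower at −3.06 (SE 0.16, adjusted p = 9.11e-05). *Cox8c*, the testis form of subunit 8, was the reverse, with 8.13, 8.50 and 8.33 in L-LY29 and 5.19 and 4.99 in H-LY29. It was higher at 3.23 (SE 0.15, adjusted p = 6.91e-05). A second probe set of *Cox8c* had a mean under the limit and was not tested: it averaged 5.57 in L-LY29 and 2.45 in H-LY29. *Cox4i2*, a form of subunit 4 known from lung and from hypoxia, had 6.45, 6.61 and 6.62 in L-LY29 and 7.54 and 7.39 in H-LY29, and was lower at −0.91 (SE 0.11, adjusted p = 0.00103). Within subunit 4 the common and the second form therefore differed with dose in opposite directions.

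The muscle forms did not pass. *Cox6a2* had 6.43, 6.88 and 6.88 in L-LY29 and 7.05 and 7.21 in H-LY29 (difference −0.40, SE 0.18, adjusted p = 0.0997). *Cox7a1* had 5.83, 5.61 and 5.83 in L-LY29 and 6.24 and 5.99 in H-LY29 (difference −0.35, SE 0.13, adjusted p = 0.0606). Both lay lower on every L-LY29 array than on either H-LY29 array. Of 17 skeletal muscle markers on the array 6 were measured, 4 of them higher and 1 lower in L-LY29, with sums of 460 to 517 in L-LY29, against 281 to 296 in H-LY29. Of the higher ones *Acta1* and *Mb* averaged 4.76 and 4.16 in H-LY29, under the limit of 4.77. They were measured only through L-LY29 and had to be higher there. The myosins *Myh1*, *Myh2*, *Myh4* and *Myh8*, which define muscle fibres, were all under the limit on low values. Of the fat markers 3 were measured, 1 higher, 1 lower and 1 that did not pass. The higher one, *Retn*, was also measured only through L-LY29.

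**Figure D3:**
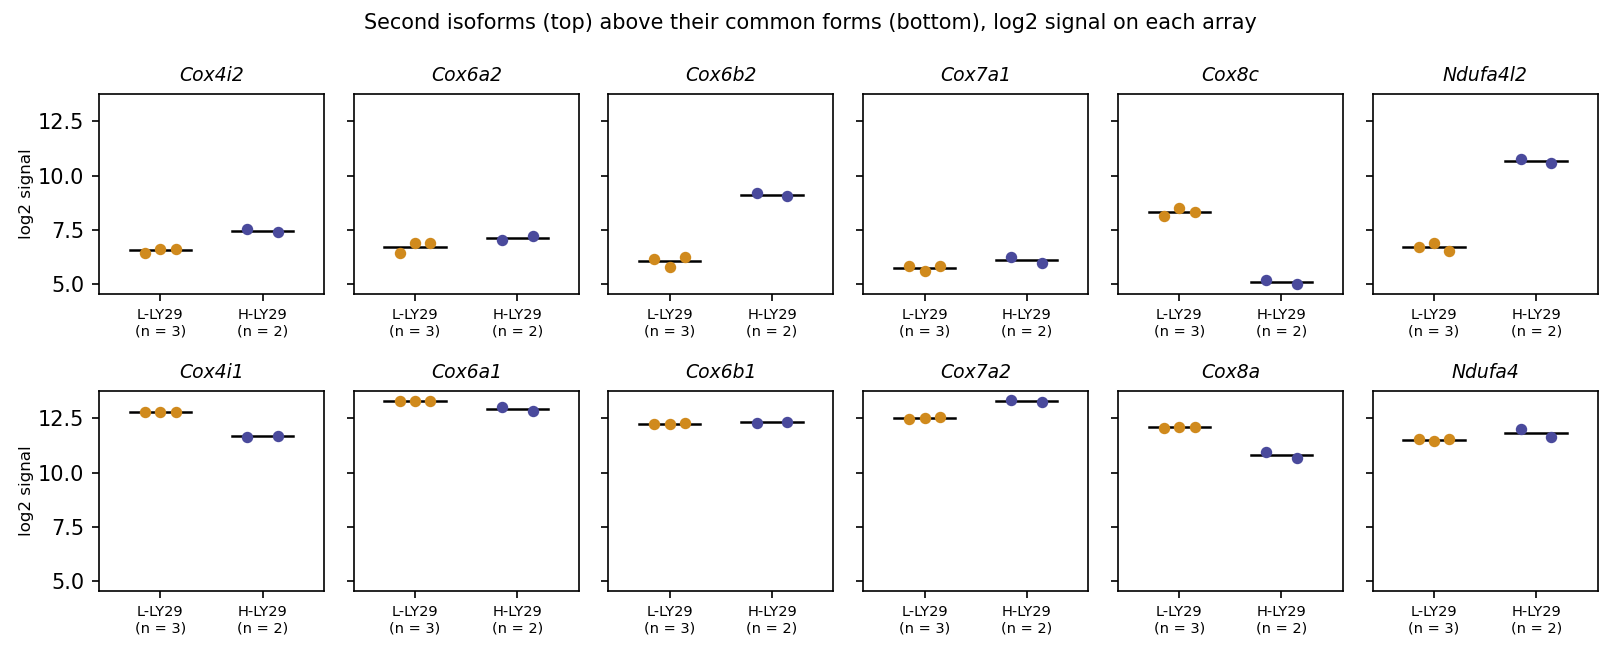
Log2 signal (vertical axis) on each array of 6 second isoforms (top row) and of the common form of the same subunit (bottom row), with L-LY29 at the left and H-LY29 at the right of each panel, points for arrays and bars for means. *Cox6b2* and *Ndufa4l2* are lower in L-LY29 by 3.06 and 3.96 log2 units while *Cox6b1* and *Ndufa4* gave −0.07 and −0.31, and *Cox8c* and *Cox8a* are both higher.

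Complex V, the ATP synthase, had 17 measured genes, 5 higher in L-LY29, 5 lower and 7 that did not pass, with a median of 0.06. With equal array medians 10 were higher and 4 lower. In the catalytic head the alpha subunit *Atp5a1* gave −0.19 on its brightest probe set and did not pass. Its 2 other measured probe sets were called lower, at −0.52 and at −3.91, where the mean was 8.19 in L-LY29 against 12.10 in H-LY29. The beta subunit *Atp5b* was lower at −0.14 but gave 0.08 with equal array medians. In the central stalk the gamma subunit *Atp5c1* (0.07, with a dim second probe set lower at −1.98) and the delta subunit *Atp5d* (0.06) did not pass, and the epsilon subunit *Atp5e* was lower at −0.52.

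On the brightest probe sets the differences of more than 1 log2 unit lay in the membrane part and the peripheral stalk. *Atp5l*, the membrane subunit g, which takes part in the pairing of the enzyme into dimers, had 12.06, 12.06 and 12.11 in L-LY29 and 10.80 and 10.63 in H-LY29. It was higher at 1.36 (SE 0.06, adjusted p = 7.55e-05), with both H-LY29 arrays well below the others. *Atp5o*, the OSCP that joins the peripheral stalk to the head, had 10.92, 10.97 and 10.99 in L-LY29 and 12.16 and 11.92 in H-LY29. It was lower at −1.08 (SE 0.08, adjusted p = 0.000233), and its second probe set gave −1.75. Subunit b of the same stalk, *Atp5pb*, was higher at 0.38 with a second probe set lower at −0.64, and subunit d, *Atp5h* (0.20), and coupling factor 6, *Atp5j* (0.20), were higher. The small membrane subunits *Atp5j2*, *Atp5k*, *Atp5md* and *Atp5mpl* did not pass, with differences from −0.08 for *Atp5mpl* to 0.17 for *Atp5md*. Among their other probe sets 1 of *Atp5k* was lower at −0.70, and 2 of *Atp5j2* were higher at 0.38 and 0.83.

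Subunit c, which forms the rotating ring, is encoded by 3 genes whose mature proteins are the same, and these genes did not go one way. *Atp5g1* had 10.28, 10.45 and 10.46 in L-LY29 and 11.77 and 11.59 in H-LY29, and was lower at −1.28 (SE 0.09, adjusted p = 0.000179). *Atp5g3* had 11.65, 11.68 and 11.74 in L-LY29 and 12.84 and 12.82 in H-LY29, and was lower at −1.14 (SE 0.04, adjusted p = 4.84e-05). *Atp5g2*, with the NRF1 letters in its promoter above, had 11.75, 11.76 and 11.79 in L-LY29 and 11.21 and 11.15 in H-LY29, and was higher at 0.59 (SE 0.04, adjusted p = 0.000181). Each of them rests on 1 measured probe set, and in none did the doses overlap.

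Assembly factors help to build a complex without staying in it. Of the 8 Ndufaf genes, factors of complex I, 5 were lower in L-LY29 (62.5%, beside 46.6% of all tested genes), 0 were higher and 3 did not pass, with a median of −0.79. With equal array medians or quantile normalization 5 were lower and 1 higher, and the median was −0.58 and −0.40. *Ndufaf7*, a methyltransferase that modifies a core subunit, had 7.64, 7.72 and 7.82 in L-LY29 and 9.24 and 9.42 in H-LY29 (difference −1.60, SE 0.10, adjusted p = 0.000142). *Ndufaf2* had 8.63, 8.78 and 8.78 in L-LY29 and 10.18 and 10.12 in H-LY29 (difference −1.42, SE 0.08, adjusted p = 9.89e-05). The doses were clear of each other in both genes. *Ndufaf6* (−1.05), *Ndufaf3* (−0.83) and *Ndufaf5* (−0.75) were lower as well. *Ndufaf1* (−0.06), *Ndufaf4* (−0.21) and *Ndufaf8* (0.05) did not pass, though a second probe set of *Ndufaf4* was lower at −1.71 and one of *Ndufaf8* higher at 1.35.

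A pair of relatives of subunits moved in opposite directions. *Ndufa4l2*, a relative of *Ndufa4* that is induced in hypoxia, had 6.72, 6.88 and 6.54 in L-LY29 and 10.79 and 10.57 in H-LY29. Its difference of −3.96 (SE 0.13, adjusted p = 4.84e-05) was the largest of the 87 measured genes, on 1 probe set. *Cox7a2l*, described as a supercomplex factor related to subunit 7a, had 12.69, 12.74 and 12.77 in L-LY29 and 11.51 and 11.91 in H-LY29. It was higher at 1.02 (SE 0.12, adjusted p = 0.00114), all 3 of its probe sets were called higher, and it had the widest spread between the H-LY29 arrays among the 87 genes (SD 0.28, n = 2).

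Many of these genes have several probe sets, and these did not always move together. Of 161 measured probe sets 55 were higher in L-LY29 and 57 lower, while 49 did not pass, beside 72.8% of all 23456 tested probe sets called (29.0% higher and 43.7% lower). Where 2 or more probe sets of a gene were called, which held for 27 genes, 11 of them had calls in both directions (40.7%). Over all such genes on the array this share was 43.3%. The widest gap was in *Ndufab1*. Its brightest probe set had 11.33, 11.41 and 11.37 in L-LY29 and 10.88 and 10.62 in H-LY29 (difference 0.62), and the next one 9.25, 9.48 and 9.36 in L-LY29 and 11.76 and 11.64 in H-LY29 (difference −2.34). The direction of this gene thus depends on the probe set that stands for it. For *Ndufb2* the differences were 1.25 and −1.01 with another at 0.04, and for *Ndufc1* they were −0.75 and 0.90. For *Ndufa12* the probe sets called higher gave 0.54 and 0.31, and the one called lower gave −1.44 at a dim signal, with a mean of 4.21 in L-LY29 (SD 0.25, n = 3) against 5.65 in H-LY29 (SD 0.60, n = 2). Its mean in L-LY29 lay under the limit of 4.77, so it was measured only through H-LY29 and had to be lower in L-LY29; without it *Ndufa12* had calls in 1 direction. Both probe sets of *Ndufc1* were bright, at 11.15 and 10.92 in L-LY29 and 11.89 and 10.02 in H-LY29. What part of a transcript each probe set reads was not examined here.

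**Figure D4:**
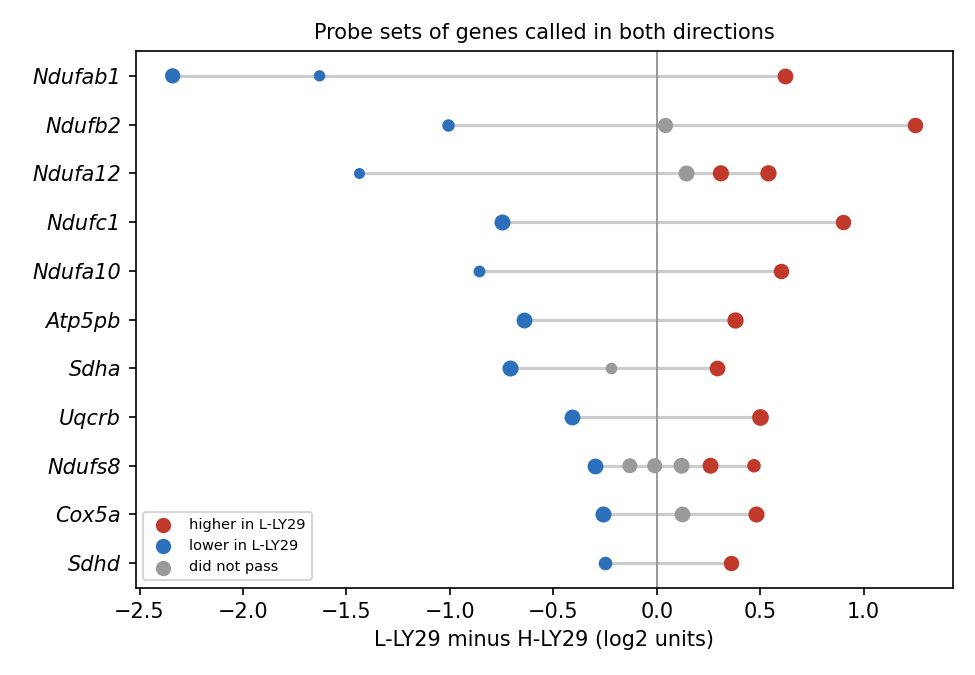
Difference of every measured probe set, L-LY29 minus H-LY29 in log2 units (horizontal axis), of the 11 oxidative phosphorylation genes with called probe sets in both directions (rows); points are probe sets, coloured by call and larger where the mean signal is higher, and grey lines span the probe sets of a gene. *Ndufab1* spans from −2.34 to 0.62 and *Sdhd*, the narrowest, from −0.25 to 0.36.

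Genes that work with the complexes but lie outside the symbol rule were mixed as well. Their counts stand beside 27.1% higher and 46.6% lower of all tested genes. Of 15 measured respiratory chain genes, such as those of ubiquinone synthesis and of electron transfer flavoprotein, 3 were higher in L-LY29, 9 lower and 3 did not pass (median −0.33). *Pdss2*, which makes the side chain of ubiquinone, had 4.37, 4.92 and 5.25 in L-LY29 and 10.19 and 9.97 in H-LY29 (difference −5.23, SE 0.28, adjusted p = 9.84e-05). Only 1 of the 3 probe sets of this gene was called. *Coq2*, which joins that side chain to the ring, was higher at 1.05 (SE 0.05). Other assembly factors gave 8 higher (23.5%), 15 lower (44.1%) and 11 that did not pass of 34 (median −0.22), near the shares of all tested genes. Among them *Coa3* (−1.35), *Cox15* (−2.89), which takes part in making haem a, and *Surf1* (−0.77), all factors of complex IV, were lower. Further complex IV factors were named after their values were seen. *Sco1* (−1.87), *Cox11* (−1.59) and *Sco2* (−1.18) were lower as well. *Coa6* (1.40), *Cox16* (0.85) and *Cox20* (0.62) were higher, and *Coa5*, *Cox10*, *Cox17*, *Cox18* and *Cox19* did not pass. In the citrate cycle and pyruvate dehydrogenase, which supply the electrons, 7 genes were higher (30.4%), 11 lower (47.8%) and 5 did not pass of 23 (median −0.21). These shares too were near those of all tested genes. *Cs*, citrate synthase, had 10.91, 10.80 and 10.80 in L-LY29 and 11.96 and 11.81 in H-LY29 (difference −1.05, SE 0.07), and *Ogdh* was lower at −1.04, while *Dld*, the dihydrolipoamide dehydrogenase of both complexes, was higher at 1.33. With quantile normalization the medians of these 3 lists were 0.06, 0.14 and 0.11, so their signs rest on the scaling. The mitochondrially encoded subunits were not analysed here.

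Regulators of mitochondrial gene expression gave 6 higher (46.2%), 5 lower (38.5%) and 2 that did not pass of 13, beside 27.1% and 46.6% of all tested genes. *Gabpb1*, the partner of GABP alpha at ETS letters, had 5.69, 6.09 and 6.20 in L-LY29 and 9.44 and 9.60 in H-LY29 (difference −3.53, SE 0.18, adjusted p = 8.7e-05), on 1 of 2 probe sets. *Ppargc1a*, the coactivator PGC-1 alpha, was lower at −1.60 (SE 0.17), with only 1 of its 5 probe sets called. *Nfe2l2*, the oxidative stress factor Nrf2, was higher at 0.46 (SE 0.05), on 1 of 2 probe sets. The genes of the factors whose letters were searched were added after their values were seen. *Nrf1* was higher at 1.39 on its brightest probe set, with 2 probe sets called in each direction, *Gabpa* was higher at 0.53 with 1 in each direction, and *Yy1* was lower at −0.67.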

How the data were processed

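Cultured adult mouse optic nerves were profiled on 5 Affymetrix mouse genome arrays (3 L-LY29, 2 H-LY29), each assigned by its label. Per the labels, RNA was purified from whole nerves and labelled as biotinylated cRNA. The authors state that they read the images in Affymetrix software and normalised the data with MAS-5 in GeneSpring. The deposited values are a log2 signal for each of 45101 probe sets. Whether another step followed MAS-5 was not established here. For detection calls and the scaling target nothing was found in the sources used here. Precision is limited by the number of arrays.

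The log2 signals were used as deposited, with nothing added. Probe sets of several genes or of none were left out, as were those with a mean under the 40th percentile (4.77). The brightest probe set stood for its gene, and probe sets were also tested one by one. L-LY29 was set against H-LY29 with limma 3.58.1 under R 4.3.3 (lmFit, then eBayes with an intensity trend, two-sided), with Benjamini-Hochberg adjustment over all 12935 genes or 23456 probe sets. The fit was tested on simulated arrays with 200 of 12935 genes changed: calls were made for 5 of 65 genes at a change of 0.5 log2 units, for 63 of 72 at 1 and for 62 of 63 at 2, always in the right direction, and for 7 unchanged genes. The real arrays gave many more calls, and recovery there may differ.

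The genes, the lists and the rule for named genes were chosen with earlier results of these data known. The rule named, in each complex, the 3 genes furthest in each direction among those called and with separate doses, the second isoforms with their common forms, the 4 genes with the widest gap between probe sets called in both directions, every assembly factor, and up to 3 genes of each other list with the smallest adjusted p. Marker lists of cell types are given as counts and sums instead, and those not in the report were as follows: of astrocyte markers 1 was higher and 4 lower of 7, of oligodendrocyte precursor markers 1 and 3 of 6 and of endothelial markers 3 and 1 of 6. Among all tested genes 27.1% were higher and 46.6% lower. The settings tried in turn were the filter dropped or set at the 60th percentile, a floor under low values (10th or 30th percentile), equal array medians, quantile normalization, averaging over a gene's probe sets, plain _at probe sets, eBayes with no trend, a block for the replicate number, and leaving out an array with the filter and probe sets kept. Promoters are from RefSeq, matched by gene ID.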

Additional observations from a re-analysis of the deposited data

How the results depend on the processing

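Of the 87 measured genes 43 kept their direction and their side of the threshold under every alternative that gave them a value, 26 of them under all 15; the filter at the 60th percentile gave values for 85 genes and plain _at probe sets for 66. With equal array medians 46 genes and 83 probe sets were higher in L-LY29, against 30 and 55 as deposited. The sign turned for *Ndufa5* (0.20), *Ndufb5* (0.12), *Ndufs5* (0.08), *Uqcrc2* (0.20), *Uqcrq* (0.18), *Cox6b1* (0.14), *Atp5b* (0.08) and *Atp5j2* (0.20), all near zero before; the shift of the scale is the only change there. Averaging the probe sets of a gene turned the sign for *Ndufa10* (−0.13), *Ndufa12* (−0.11), *Ndufab1* (−1.11), *Ndufb5* (0.68), *Ndufc1* (0.08), *Uqcrc2* (0.41), *Uqcrq* (0.51), *Atp5c1* (−0.95), *Atp5j2* (0.40) and *Atp5pb* (−0.13). With plain _at probe sets, which are fewer, 25 probe sets were higher and 29 lower, and another probe set then stood for *Ndufa12* (−1.44), *Ndufab1* (−2.34), *Ndufb11* (0.48), *Ndufb2* (−1.01), *Ndufb5* (1.45), *Ndufc1* (0.90), *Ndufc2* (0.18), *Ndufs8* (−0.13), *Sdha* (0.29), *Uqcrb* (−0.41), *Uqcrq* (1.05), *Cox5a* (−0.26), *Cox7a2* (0.05), *Atp5c1* (−1.98), *Atp5j2* (0.38) and *Atp5pb* (−0.64), whose sign turned. With averaging and with plain _at probe sets, *Uqcrq* drew on its dim probe set that was measured only through L-LY29. *Ndufa12* drew there on its dim probe set that was measured only through H-LY29. With averaging, *Ndufab1* also drew on a probe set measured only through H-LY29, with means of 4.54 in L-LY29 and 6.17 in H-LY29. The median of the subunit genes, −0.01, was 0.06 with no filter, 0.06 with quantile normalization, 0.20 with equal array medians and −0.05 with the mean of probe sets. Leaving out 1 array at a time gave medians of −0.01 to 0.06, 27 to 34 genes higher and 30 to 38 lower, and 50 to 71 probe sets higher and 52 to 70 lower. With 1 array of H-LY29 left, that array was assumed to vary like the others. The replicate number as a block gave 26 genes higher and 29 lower, and 49 probe sets higher and 51 lower. Deviations of arrays that share a number from their dose mean correlated at 0.017 and 0.035. With 2 H-LY29 arrays these deviations mirror each other, so the values cannot decide whether arrays with the same number share more than that. The calls of *Ndufa4*, *Ndufs5*, *Ndufs8*, *Atp5b* and *Atp5j* were lost without any 1 of the L-LY29 arrays, and that of *Uqcr11* without L-LY29 replicate 3.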

Other observations

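Besides the 179 probe sets of 1 gene, 10 probe sets name an oxidative phosphorylation gene together with another gene or pseudogene, and so their signal cannot be assigned. The bright one for *Ndufs5* and its pseudogene gave a difference of −0.73 where the probe set of *Ndufs5* alone gave −0.13. *Ndufb4*, which was under the limit on low values by itself, shares 2 bright probe sets with *Ndufb4b* and *Ndufb4c*, at 0.04 and 0.60. The probe set of *Ndufa11* and *Ndufa11b* with the higher signal gave −0.31 and the other 1.22, and that of *Ndufs6* and *Ndufs6b* gave −0.24.

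Some signals were equal to the last digit on several arrays. Of the 179 probe sets 19 had the same value on all 3 L-LY29 arrays (10.6%, where 8.89% of all probe sets did), and 75 on at least 2 of them. None of the 179 had the same value on both H-LY29 arrays, where 4.30% of all probe sets did. The small SDs of these genes in L-LY29, and the p-values that rest on them, include such values.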
